A study of Homo sapiens with 6 samples.

Results

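The zinc-finger genes of the 19q13.41 cluster are 38 genes with ZNF symbols that lie beside each other on the long arm of human chromosome 19. They were taken by symbol from the table of gene counts, which holds 58870 genes, and all 38 were found. On GRCh38 they span positions 51804816 to 53580269 of chromosome 19, a stretch of 1775 kb, with 16 genes on the plus strand and 22 on the minus strand. The list was drawn up with the comparison of the genotypes in view, so the changes of these genes are described below without a test of their own.

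RNA was sequenced from 3 wild-type (WT) and 3 THUMPD1 knockout (KO) samples of HEK-293T, a line of human embryonic kidney cells that carries the SV40 large T antigen. THUMPD1 is a tRNA-binding protein that NAT10 needs as a partner to acetylate cytidine in tRNA. The KO cells were made with CRISPR-Cas9 and grown from a sorted single-cell clone, so knockout and clone cannot be told apart here. Total RNA was depleted of ribosomal RNA and made into stranded paired-end libraries. No age, treatment or time point separates the groups, and nothing in the labels says that samples of a genotype came from separate cultures, so p values measure the spread between these libraries only.

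Most genes of this kind encode KRAB zinc-finger proteins, in which an array of C2H2 fingers reads DNA and a KRAB domain binds the co-repressor TRIM28. TRIM28 in turn brings the histone methyltransferase SETDB1, and the best known targets of this silencing are transposable elements. The genes arose by repeated tandem duplication, which is why they stand in clusters and resemble each other. The coding sequences of the members matched that description. They hold a median of 13 C2H2 finger motifs (7 to 26), against 10 over the 438 other ZNF genes with a coding sequence. A KRAB motif was found in 37 of the 38 members, all except ZNF83, and in 219 of the 438 other ZNF genes.

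Some of the members also resemble each other in their promoters. RefSeq (GRCh38.p14) lists 44 promoters for 31 of the 38 genes, and the 250 bases before each start were read. The 5 sequences below are shown because they belong to the members on which the results turn. ZNF83 and ZNF808 are among the members with the highest log2 fold changes, ZNF347 is the member with counts in WT and almost none in KO, and ZNF534 is a member with no counts at all. Capitals mark 2 stretches of 12 bases that were found by comparing the members' own promoters, CAGGCCCCGCCC and CCCAGGCCTGGC, each searched on both strands.
ZNF534 chr19:52428898-52429147 (plus strand): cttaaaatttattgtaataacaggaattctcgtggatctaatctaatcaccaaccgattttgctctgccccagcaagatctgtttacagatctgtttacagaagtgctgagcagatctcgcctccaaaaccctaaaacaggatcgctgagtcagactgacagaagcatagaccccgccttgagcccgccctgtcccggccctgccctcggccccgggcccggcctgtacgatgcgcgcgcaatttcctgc
ZNF808 chr19:52527418-52527667 (plus strand): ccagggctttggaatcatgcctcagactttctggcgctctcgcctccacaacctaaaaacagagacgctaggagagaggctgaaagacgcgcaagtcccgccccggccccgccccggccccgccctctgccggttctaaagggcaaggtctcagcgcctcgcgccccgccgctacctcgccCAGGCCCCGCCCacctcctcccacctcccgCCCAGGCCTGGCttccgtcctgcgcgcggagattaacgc
ZNF83 chr19:52638356-52638605 (minus strand): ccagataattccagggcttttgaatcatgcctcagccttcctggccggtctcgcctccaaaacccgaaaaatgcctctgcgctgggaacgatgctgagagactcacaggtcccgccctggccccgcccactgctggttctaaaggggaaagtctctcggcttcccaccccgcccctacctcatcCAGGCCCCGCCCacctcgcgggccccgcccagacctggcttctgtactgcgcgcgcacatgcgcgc
ZNF83 chr19:52690497-52690746 (minus strand): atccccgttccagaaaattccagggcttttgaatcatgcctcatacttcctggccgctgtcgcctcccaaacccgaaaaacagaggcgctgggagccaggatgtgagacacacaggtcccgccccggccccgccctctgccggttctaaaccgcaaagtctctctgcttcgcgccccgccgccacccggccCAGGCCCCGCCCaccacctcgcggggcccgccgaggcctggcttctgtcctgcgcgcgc
ZNF347 chr19:53159054-53159303 (minus strand): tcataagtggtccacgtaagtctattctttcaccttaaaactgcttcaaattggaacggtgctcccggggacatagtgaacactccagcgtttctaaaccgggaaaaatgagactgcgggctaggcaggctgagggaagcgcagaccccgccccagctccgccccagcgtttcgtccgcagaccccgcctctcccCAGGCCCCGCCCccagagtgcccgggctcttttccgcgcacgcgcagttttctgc

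The 2 promoters of ZNF83 were identical at 77.5% of aligned positions, and the ZNF808 promoter matched them at 71.7% and 72.5%. The ZNF347 and ZNF534 promoters resembled ZNF808 less, at 52.6% and 52.2%. The identity that unrelated promoters reach in such an alignment was not computed. CAGGCCCCGCCC stood in the promoters of 12 of the 31 member genes and in 1.21% of all 35116 human promoters in the table. CCCAGGCCTGGC stood in 9 member genes and in 0.114% of all promoters. The member values count genes, while the values over all promoters count promoters, those of the members included. Since both stretches were picked from the members' promoters, their excess there is a description. The first ends in the letters CCGCCC, the reverse complement of the Sp1 box GGGCGG, so the 2 searches overlap.

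The member promoters were also rich in CpG. The median was 17.5 CpG in 250 bases, against 11 over all promoters, and 88.6% of them held at least 10, against 52.2%. The Sp1 box GGGCGG was found on either strand in 65.9% of member promoters and 42.6% of all promoters. The ETS core CCGGAAG was found in 15.9% and 8.52%. The CCAAT box was present in 22.7% and 32.0%, and TATAAA in 2.27% and 10.7%. Genes with several listed starts enter these shares several times.

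Total counts lay between 32225646 and 44099898 per library, so that 3 counts correspond to 0.0680 to 0.0931 CPM, the unit in which counts are scaled to the library total. THUMPD1 itself fell from 80.9 ± 3.65 to 11.04 ± 0.918 CPM (SD, n = 3 libraries each; limma-voom adjusted p = 3.167e-08). All 8 HEK-293T markers examined were detected. Their summed level was 595 to 628 CPM in WT and 522 to 561 CPM in KO. By limma-voom (adjusted p under 0.05), 3 markers were called higher in KO and 3 lower, beside 13.7% and 13.0% of all genes tested. NEFM fell from 35.3 ± 8.47 to 5.33 ± 1.20 CPM (SD, n = 3), a log2 fold change of −2.75. KRT18 and CDH2 were also lower (−0.53 and −0.18), while PAX2, INA and NEFL were higher (0.64, 0.33 and 0.31). Of 10 markers of blood, liver, endothelium and fibroblasts, COL1A1 and PDGFRA passed the filter. The summed level of these 10 was 14.8 to 19.3 CPM in WT and 10.3 to 15.2 CPM in KO, with the defining blood, liver and endothelial markers at or near 0. The part of these marker differences in the results was not tested.

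As a group the members took up a larger share of the RNA in KO. Their summed level was 405, 411 and 400 CPM in the 3 WT libraries and 524, 535 and 520 CPM in the 3 KO libraries. All KO libraries were above all WT libraries, and the ratio of the means was 1.30. These are bulk samples, in which more cells with the RNA and more RNA per cell cannot be told apart.

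Genes entered the test when 3 or more of the 6 libraries reached 1 CPM. Of the 38 members, 30 passed this filter and 8 did not. Among the 30, the log2 fold change of KO over WT was positive for 29 (53.6% over all genes tested) and negative for 1. By limma-voom with an adjusted p threshold of 0.05, 19 of the 30 (63.3%) were called higher in KO, none was called lower, and 11 were not called. Over all 15088 genes tested, 13.7% were called higher and 13.0% lower. The contrast that chose the members is the one counted here, so nothing is read from the difference between these shares. ZNF528 passed the filter only because of its KO libraries.

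The differences were mostly small. The median log2 fold change of the 30 tested members was 0.32, with quartiles of 0.23 and 0.52, beside a median of 0.016 over all genes tested. In size, 3 members reached a log2 fold change of 1, as did 0.835% of all genes in that direction. Another 5 lay between 0.5 and 1, and 22 were under 0.5. All KO libraries stood above all WT libraries for 24 of the 30 members (80.0%), against 24.5% of all genes. The WT and KO ranges overlapped for the other 6: ZNF649, ZNF841, ZNF766, ZNF880, ZNF320 and ZNF813.

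**Figure D1:**
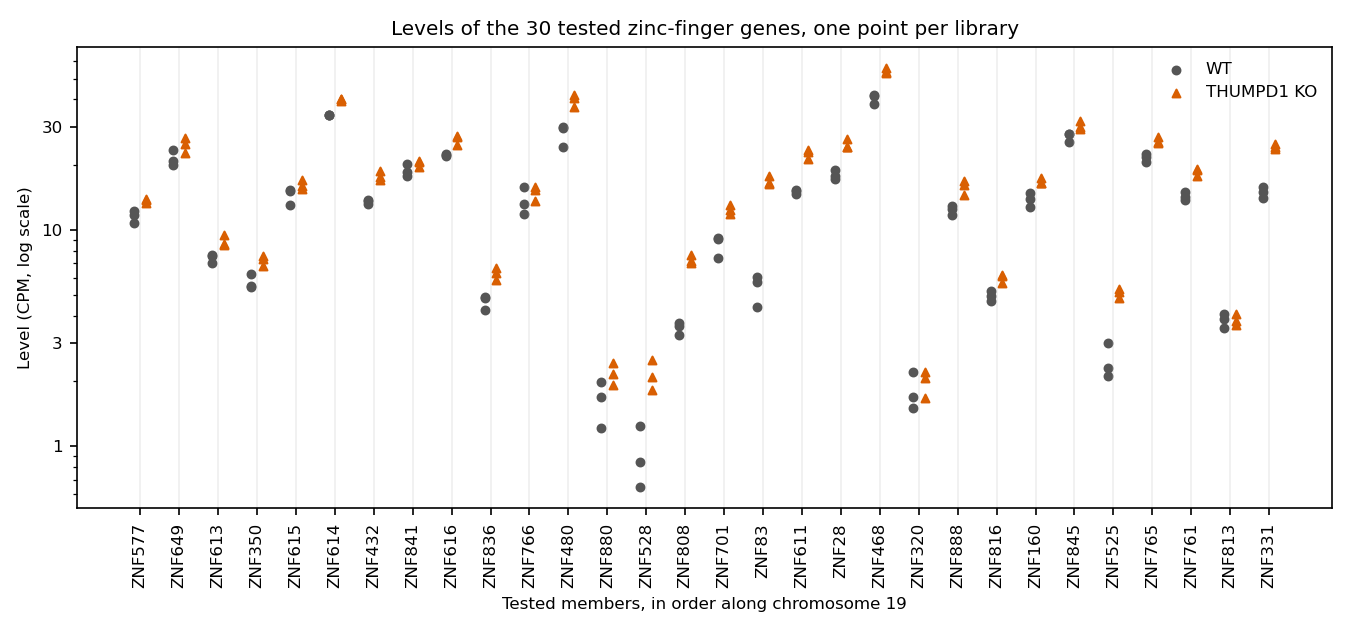
Level of the 30 tested members in each library, in CPM on a log axis, in their order along chromosome 19. Grey circles are the 3 WT libraries and orange triangles the 3 THUMPD1 KO libraries; the triangles stand clear above the circles for 24 members, with the widest gap at ZNF83.

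ZNF83 changed the most. It is the member in which no KRAB motif was found, and its product holds 14 finger motifs. Its level was 6.03, 5.74 and 4.37 CPM in WT and 16.5, 17.6 and 16.3 CPM in KO. All KO libraries stood far above all WT libraries. The means were 5.38 ± 0.886 and 16.8 ± 0.723 CPM (SD, n = 3), a ratio of 3.12 and a log2 fold change of 1.64 (SE 0.11). ZNF83 (ENSG00000167766.18) lies on the minus strand at chr19:52594060-52690559, and 2 other annotated genes on its strand and 3 on the opposite strand overlap it.

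ZNF808, which is known to silence a family of endogenous retroviral repeats during pancreas development, lies close to ZNF83 on the other strand. It was at 3.69, 3.26 and 3.58 CPM in WT and 7.14, 7.03 and 7.64 CPM in KO. Both groups were tight and far apart, with means of 3.51 ± 0.226 and 7.27 ± 0.324 CPM (SD, n = 3). The ratio was 2.07 and the log2 fold change 1.01 (SE 0.11). Some 6.32% of the 100-base stretches in its exons also occur in another gene, the largest part (2.57%) in the overlapping ZNF701.

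ZNF528 had the lowest WT level of the tested members. It was at 1.23, 0.843 and 0.644 CPM in WT and 2.50, 1.81 and 2.08 CPM in KO. The groups did not overlap, but 2 of the 3 WT libraries were below the filter of 1 CPM. The means were 0.907 ± 0.301 and 2.13 ± 0.344 CPM (SD, n = 3), with a log2 fold change of 1.09 (SE 0.21, the largest SE among the members). A filter asking for 1 CPM in all 6 libraries removes the gene.

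ZNF525, near the far end of the cluster, was at 3.01, 2.30 and 2.10 CPM in WT and 5.31, 4.82 and 5.16 CPM in KO. The KO libraries were again all above the WT libraries, and the log2 fold change was 0.97 (SE 0.12). The last member, ZNF331, is an imprinted gene in several tissues. Its level was 15.7, 15.0 and 14.1 CPM in WT and 24.9, 23.6 and 24.1 CPM in KO. At 14.9 ± 0.820 against 24.2 ± 0.681 CPM (SD, n = 3) the spread within a genotype was small beside the difference, and the log2 fold change was 0.70 (SE 0.061). No exon stretch of ZNF331 was shared with another gene.

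Of the 8 members with the highest log2 fold changes, 3 remain. ZNF611 was at 15.2, 15.2 and 14.6 CPM in WT and 23.3, 21.1 and 22.8 CPM in KO, a log2 fold change of 0.59 (SE 0.063). ZNF480 was at 24.0, 29.5 and 29.8 CPM in WT and 37.0, 41.8 and 40.7 CPM in KO, a log2 fold change of 0.53 (SE 0.092). Replicate 1 was the lowest library of both genotypes for this gene. ZNF701 was at 9.03, 9.20 and 7.43 CPM in WT and 12.4, 13.0 and 11.8 CPM in KO, also a log2 fold change of 0.53 (SE 0.095). For all 3 genes the groups stood apart.

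At the other end, 8 members had groups that did not overlap although the difference was small. ZNF614 was at 33.9, 33.9 and 34.1 CPM in WT and 40.2, 40.1 and 39.4 CPM in KO. Its log2 fold change was only 0.23, but with the smallest SE among the members (0.048) it was called. ZNF616 was at 22.3, 22.1 and 21.8 CPM in WT and 27.0, 26.8 and 24.8 CPM in KO, a log2 fold change of 0.26. ZNF765 was at 20.6, 22.4 and 21.8 CPM in WT and 25.2, 26.8 and 25.3 CPM in KO, a log2 fold change of 0.27. These 2 were also called.

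ZNF577, the first gene of the cluster, was at 12.2, 11.6 and 10.8 CPM in WT and 13.8, 13.8 and 13.3 CPM in KO. Its log2 fold change of 0.24 was called. ZNF613 had a log2 fold change of 0.24 as well and was not called, with 7.55, 7.61 and 7.03 CPM in WT and 8.60, 9.41 and 8.53 CPM in KO. The 2 genes differ in the SE, which was 0.073 for ZNF577 and 0.094 for ZNF613.

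The remaining 3 of these 8 were not called. ZNF845, whose product has the most finger motifs of the cluster (26), was at 27.6, 27.6 and 25.3 CPM in WT and 29.3, 31.7 and 29.8 CPM in KO. ZNF615 was at 13.1, 15.1 and 15.2 CPM in WT and 17.1, 15.9 and 15.4 CPM in KO. ZNF816 was at 4.92, 4.70 and 5.23 CPM in WT and 6.12, 6.19 and 5.65 CPM in KO. Their log2 fold changes were 0.18, 0.19 and 0.23. That of ZNF615 was 0.088 without WT replicate 1 and 0.24 without WT replicate 3. The gap between the highest WT and the lowest KO library was narrow in each, and for ZNF615 it was 15.2 against 15.4 CPM.

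The 2 members nearest to no difference were ZNF813 and ZNF320. ZNF813 was at 3.86, 3.51 and 4.09 CPM in WT and 4.07, 3.64 and 3.78 CPM in KO, a log2 fold change of −0.03 (SE 0.12). ZNF320 was at 2.20, 1.69 and 1.49 CPM in WT and 1.68, 2.07 and 2.20 CPM in KO, a log2 fold change of 0.065 (SE 0.18). In both genes the libraries of the 2 genotypes were intermingled.

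The other 12 tested members had log2 fold changes from 0.13 (ZNF841) to 0.49 (ZNF28). ZNF28, ZNF468, ZNF432, ZNF836, ZNF761, ZNF888 and ZNF160 were called higher in KO, the last a gene reported to repress the receptor TLR4. ZNF468 was the most abundant member, at 40.4 ± 2.07 CPM in WT and 54.1 ± 1.62 CPM in KO (SD, n = 3). ZNF350, a partner of BRCA1 in repression, was not called, with 5.73 ± 0.462 and 7.23 ± 0.388 CPM (SD, n = 3) and a log2 fold change of 0.29. ZNF649, ZNF766, ZNF841 and ZNF880 were not called either. Among all called members, 4 lost the call without a single library. ZNF577 lost it without WT replicate 2 or 3 or KO replicate 2 or 3 (log2 fold changes of 0.21 to 0.26). ZNF836 lost it without WT replicate 1 or any KO library (0.27 to 0.42), ZNF160 without WT replicate 2 or KO replicate 2 or 3 (0.24 to 0.28), and ZNF765 without KO replicate 2 (0.22). ZNF577 was also not called by edgeR, DESeq2 or with TMM scaling.

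Replicate numbers are shared between the genotypes, and the libraries with the same number varied together. Taken pair by pair, KO was above WT for 27, 30 and 29 of the 30 members in pairs 1, 2 and 3. The median log2 ratios were 0.35, 0.38 and 0.33. In all 3 pairs KO was higher for 26 of the 30 members, against 35.5% of all genes tested. With the replicate number as a block in the fit, ZNF350, ZNF613, ZNF649 and ZNF845 were called higher as well, which makes 23 members, while 18.4% of all genes were called higher. When the trend with GC content and length was removed in the same fit, ZNF350, ZNF613 and ZNF845 were not called, and the count was 20.

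The members differed widely in level. In WT the tested members ranged from 0.907 to 40.4 CPM, with a median of 13.6. Per kilobase of exon, which allows genes to be compared with each other, the highest WT levels were 7.65 CPM per kb for ZNF468, 6.04 for ZNF614, 5.73 for ZNF480, 4.89 for ZNF649 and 4.50 for ZNF616. The lowest tested members were ZNF528 at 0.106 CPM per kb, ZNF320 at 0.159, ZNF525 at 0.343, ZNF880 at 0.436 and ZNF813 at 0.612. The median over the tested members was 1.81 CPM per kb, below the median of 4.92 over all genes tested. These are thus genes of modest expression in this line.

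Across the 30 tested members, the log2 fold change showed little relation to other properties. With the log2 level in WT, Pearson's r was −0.33 and Spearman's rho −0.16, and the WT level enters both sides of that relation. With the number of finger motifs r was 0.013 and rho 0.0085, and with exon GC content they were 0.025 and −0.015. With the share of exon stretches found in another gene, r was 0.079 and rho 0.13. All points come from the same 6 libraries and genes are not independent replicates, so these are descriptions.

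Members with and without the promoter stretches had overlapping ranges of log2 fold change. The 11 tested members with CAGGCCCCGCCC had a median log2 fold change of 0.39 (−0.03 to 1.64), with 7 called higher. The 15 tested members with a listed promoter but without it had a median of 0.29 (0.13 to 1.09), with 9 called higher. For CCCAGGCCTGGC the medians were 0.39 over 9 members with it, 6 of them called, and 0.29 over 17 members without it, 10 of them called. Of all 30 tested members 63.3% were called higher, and of all genes tested 13.7%. Both ZNF83, with the highest log2 fold change, and ZNF813, with the lowest, carry the first stretch.

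Along the chromosome, the tested members had positive log2 fold changes from end to end of the cluster, except ZNF813 at −0.03. Members below the filter are left out here, among them ZNF347, which was lower in KO. Several of the larger values lay in the middle. From ZNF808 to ZNF468 lie 7 members within 330.0 kb, a stretch picked out after its values were seen. Of these, 6 were tested, with a median log2 fold change of 0.56 (0.42 to 1.64). The 14 tested members before the stretch had a median of 0.25 and the 10 after it 0.28. ZNF320, next to ZNF468 on the same strand, stood at 0.065. Large values also occurred outside the stretch, at ZNF528 (1.09) before it and at ZNF525 (0.97) and the last member ZNF331 (0.70) after it. Neighbours could therefore differ, and ZNF525 lies between ZNF845 at 0.18 and ZNF765 at 0.27.

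**Figure D2:**
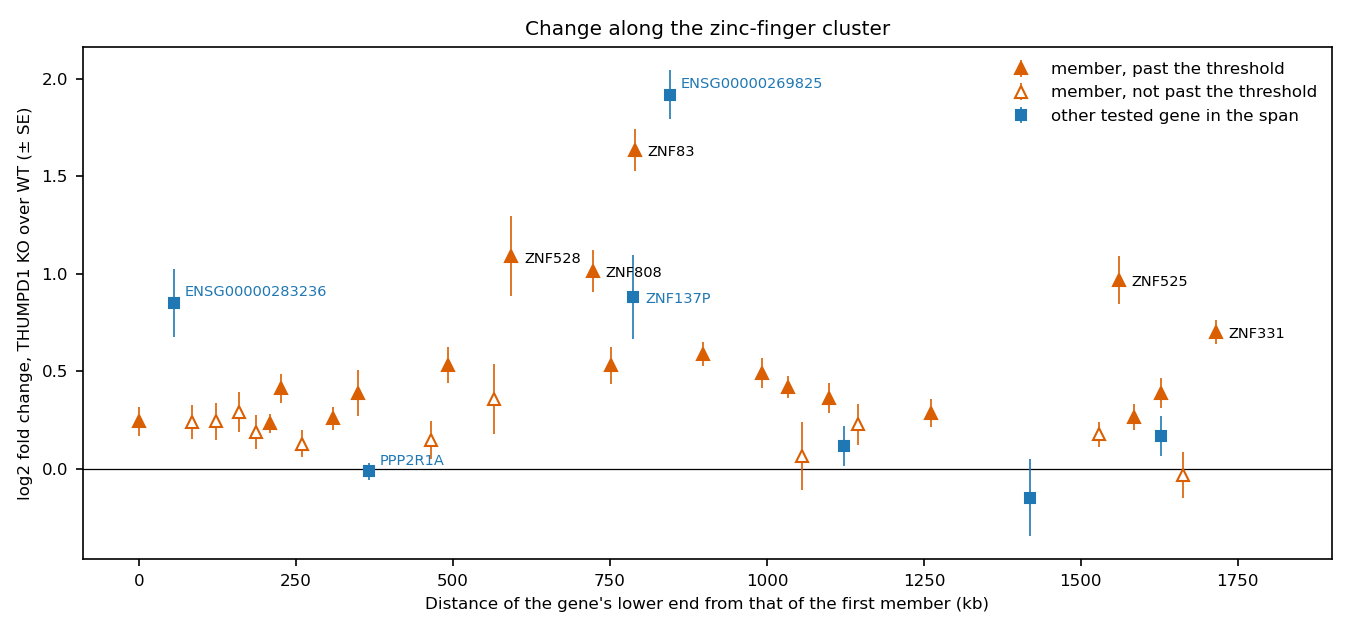
log2 fold change of KO over WT (y axis, bars are SE) against the distance of each gene's lower end on the map from that of the first member (x axis, kb). Filled and open triangles are members past and not past the threshold, and blue squares are the 7 other tested genes of the span. ZNF83 at 1.64 and the gene ENSG00000269825 at 1.92 stand highest, near the middle, and PPP2R1A lies at −0.01.

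The annotation places 61 other genes in the span, of which 7 passed the filter. By limma-voom, 3 of the 7 were called higher in KO and none lower, beside 13.7% and 13.0% of all genes tested. Each of these 3 overlaps a member that was called higher. ENSG00000269825, annotated as protein-coding, lies on the same strand as ZNF83, inside that gene and with the same start as its outer promoter. It rose from 3.28 ± 0.373 to 12.5 ± 0.515 CPM (SD, n = 3), a log2 fold change of 1.92 (SE 0.12, limma-voom adjusted p = 4.648e-06). Of the ZNF83 exon stretches, 1.75% occur in another gene, all of them in ENSG00000269825, so the 2 counts are not fully separate.

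The pseudogene ZNF137P also overlaps ZNF83, on the opposite strand. It rose from 1.25 ± 0.266 to 2.43 ± 0.334 CPM (SD, n = 3), a log2 fold change of 0.88 (limma-voom adjusted p = 0.0119). Without KO replicate 2 its adjusted p was 0.0582. WT replicate 1 was at 0.973 CPM, so ZNF137P passed the filter only because of its KO libraries. A filter asking for 1 CPM in all 6 libraries removes it. Whether its reads were kept apart from those of ZNF83 was not tested. The pseudogene ENSG00000283236, inside ZNF577, rose from 1.93 ± 0.556 to 3.57 ± 0.179 CPM (SD, n = 3; log2 fold change 0.85, limma-voom adjusted p = 0.00497).

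PPP2R1A, the scaffold subunit of protein phosphatase PP2A, is the highly expressed gene of the span and belongs to another family. It was at 212 ± 4.70 CPM in WT and 211 ± 8.30 CPM in KO (SD, n = 3), with a log2 fold change of −0.01 (SE 0.044, limma-voom adjusted p = 0.851). ZNF321P, NDUFV2P1 and TPM3P9, with log2 fold changes of 0.12, −0.15 and 0.17, were not called. Within 1000 kb on either side of the cluster, 19 genes without a ZNF symbol were tested. They had a median log2 fold change of −0.04, with 1 called higher (5.26%) and 2 lower (10.5%), beside 13.7% and 13.0% of all genes tested.

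Many of the genes overlap on the map. Of the 38 members, 21 overlap another gene on the same strand and 18 one on the opposite strand, while 11 overlap none. Whether counting used the strand is not given in the sources used here. Reads of a member and of its antisense partner may therefore not be separated. Long shared sequence was rare. The share of 100-base exon stretches that occur in another gene was 0 to 9.76% with a median of 0.455%, and the highest value was that of ZNF836 with the overlapping ENSG00000267827.

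The 8 members below the filter had between 0 and 31 expected counts per library. For ZNF347 the WT libraries held 31, 16 and 10 expected counts, and the KO libraries 1, 2 and 0. Every WT library was above every KO library, in the direction opposite to that of 29 of the 30 tested members. Such a separation downwards was found for 17.6% of all genes tested, which all passed the filter that ZNF347 did not. The share among genes with counts as low was not computed. The sums were 57 and 3 counts, and the level in WT was 18.5 times that in KO (exact 95% interval of the ratio 6.01 to 92.1, counting error only). With no filter on low counts ZNF347 was called lower in KO, with a log2 fold change of −4.00 (SE 0.61), in a fit that called 5.13% of genes lower. It was then the only member called lower, beside 17 called higher, where 4.96% of all genes were called higher.

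ZNF677, the last of a run of 4 members below the filter that includes ZNF415, ZNF347 and ZNF665, had 3, 3 and 4 counts in WT and 0, 1 and 1 in KO. The ratio of WT to KO was 4.86 (1.04 to 45.6), and the gene was not called without the filter. ZNF600, inside the middle stretch, had 3, 1 and 3 counts in WT and 5, 8 and 3 in KO, a ratio of KO to WT of 2.35 (0.916 to 6.76). ZNF610 summed to 1 count in WT and 5 in KO, ZNF578 to 6 and 7, and ZNF665 to 1 and 0. ZNF534 and ZNF415 had no count in any library, which allows up to 3 counts or 0.0931 CPM in the shallowest one. No difference was detectable for these last 5 genes at this depth.

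**Figure D3:**
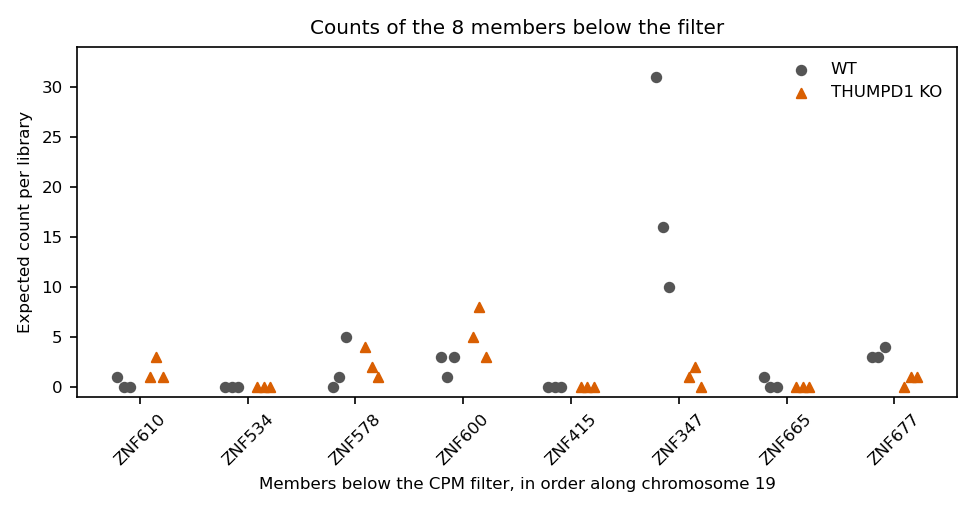
Expected counts of the 8 members below the filter in each library, in order along chromosome 19. Grey circles are WT and orange triangles THUMPD1 KO; ZNF347 has 10 to 31 counts in WT and 0 to 2 in KO, while the other members stay at 8 counts or fewer.

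Zinc-finger genes elsewhere were set beside the cluster. The other 202 protein-coding ZNF genes of chromosome 19 include 166 that were tested. Of these, 96 (57.8%) were called higher in KO and 3 lower, and 148 had a positive log2 fold change. Their median log2 fold change was 0.30 (quartiles 0.15 and 0.49), close to the 0.32 of the members. On other chromosomes 212 of 236 ZNF genes were tested, with 35 (16.5%) called higher, 19 lower and a median of 0.04. Chromosome 19 genes without a ZNF symbol, 790 tested, had 107 (13.5%) called higher, 94 lower and a median of 0.0053. The differences between these sets were not tested.

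**Figure D4:**
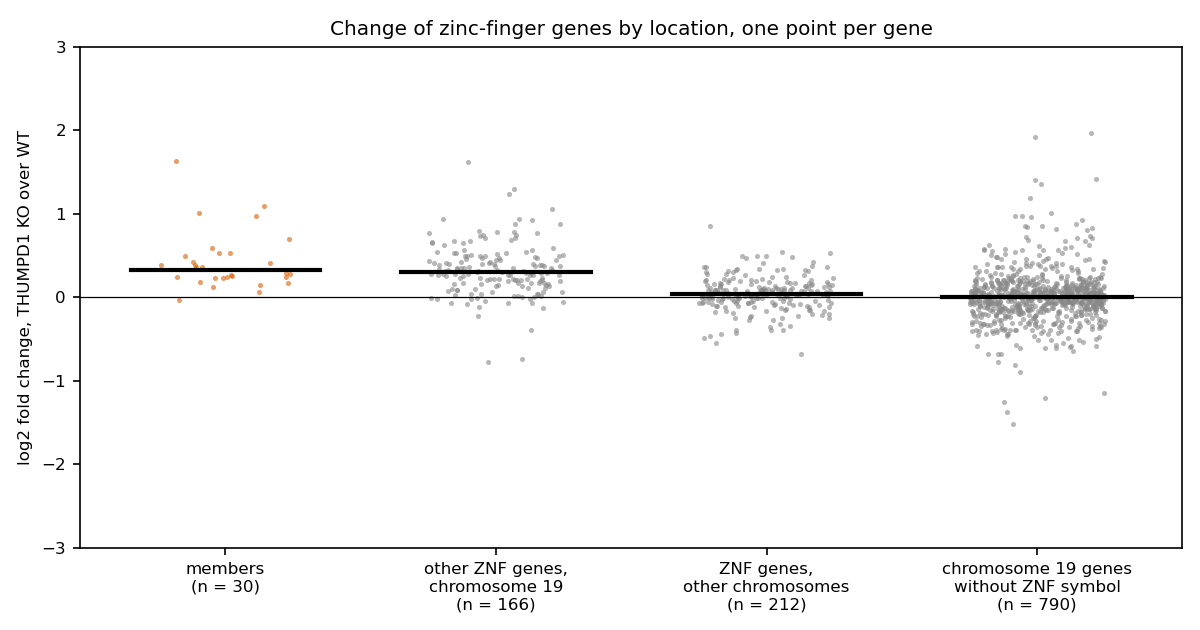
log2 fold change of KO over WT, 1 point per tested gene, for the members, the other ZNF genes of chromosome 19, ZNF genes of other chromosomes and the chromosome 19 genes without a ZNF symbol. Black bars are medians, at 0.32, 0.30, 0.04 and 0.0053, and 2 points beyond ±3 are not drawn.

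The partners through which KRAB zinc-finger proteins repress did not share one direction. All 20 genes of a list of co-repressors and silencing factors were tested, of which 2 were called higher and 3 lower in KO, with a median log2 fold change of −0.0076. Over all genes 13.7% were called higher and 13.0% lower, so these counts lie near the background. TRIM28, the direct partner of the KRAB domain, was not called (log2 fold change −0.07, limma-voom adjusted p = 0.375). SETDB1, which methylates histone H3 at the targets, rose from 60.4 ± 4.38 to 78.7 ± 2.80 CPM (SD, n = 3; log2 fold change 0.37, limma-voom adjusted p = 7.37e-04). ZNF274, a KRAB zinc-finger protein known to bind the 3′ ends of zinc-finger genes with SETDB1, rose from 21.5 ± 2.25 to 28.2 ± 1.56 CPM (log2 fold change 0.40, limma-voom adjusted p = 0.00247). ZNF274 itself lies on chromosome 19, outside the cluster.

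Of the HUSH silencing complex, TASOR fell from 302 ± 13.7 to 265 ± 6.24 CPM (SD, n = 3; log2 fold change −0.21, limma-voom adjusted p = 0.0056). Its partner MPHOSPH8 fell from 44.4 ± 1.13 to 38.8 ± 0.248 CPM (log2 fold change −0.20, limma-voom adjusted p = 0.0127). The third subunit, PPHLN1, was not called (log2 fold change 0.04, limma-voom adjusted p = 0.507), nor was MORC2, which acts with the complex (log2 fold change 0.11, limma-voom adjusted p = 0.139). UHRF1, which guides maintenance of DNA methylation, fell from 249 ± 2.56 to 226 ± 7.19 CPM (log2 fold change −0.16, limma-voom adjusted p = 0.0154). The calls of MPHOSPH8 and UHRF1 depended on single libraries. Without WT replicate 2 the adjusted p of MPHOSPH8 was 0.0584, and for UHRF1 it was 0.0654 without WT replicate 3 and 0.0754 without KO replicate 2.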

How the data were processed

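RNA-seq libraries of 3 WT and 3 THUMPD1 KO samples were used. The authors used STAR on GRCh38 and then RSEM, and the deposited table holds the expected counts per gene, unscaled. The study names GENCODE 46, and positions and exons here came from GENCODE 44. The members and lists were chosen with earlier results of these data known. Genes reaching 1 CPM in 3 or more of 6 libraries were kept. After quantile normalization, limma-voom (limma 3.58.1, R 4.3.3) was fitted with genotype as its single term, two-sided, with Benjamini-Hochberg adjustment over all 15088 genes. CPM used total counts. Alternatives, with edgeR 4.0.16 and DESeq2 1.42.0 on rounded counts, are given in the closing section, and the fits were tested on simulated data. The text gives in full the 8 highest and 8 lowest log2 fold changes among members without overlap, members below the filter with 10 or more counts in a library, and those with a printed sequence; ZNF677, ZNF600, ZNF468 and ZNF350 were added after their values were seen. Motifs were matched in translated coding sequences. For pairing, deviations from genotype means over 11320 genes correlated at 0.279, 0.320 and 0.149 for equal replicate numbers, and from −0.347 to 0.107 otherwise, so the numbers were taken to pair the libraries.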

Additional observations from a re-analysis of the deposited data

How the results depend on the processing

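Across 15 alternatives the number of members called higher in KO lay between 15 and 23, against 19. It was 19 with TMM, 20 with plain library sizes, 18 with edgeR and 18 with DESeq2, and 15 to 20 when a library was left out. With the replicate block it was 23, adding ZNF350, ZNF613, ZNF649 and ZNF845, and 20 with the trend in GC content and length also removed, where only ZNF649 of these 4 was called. The block took the count over all genes, in either direction, from 4025 to 5297. That count was 3897 with TMM, 3908 with plain library sizes, 3874 with edgeR and 3668 with DESeq2. The block moved no count by over 1.5 times. The number called lower was 0 throughout, except 1 (ZNF347) without the filter. Leaving out a library gave 2663 to 4245 genes over the whole table, the lowest without KO replicate 2, where the cause was not tested. Of the 19 calls, 15 held in every setting in which the gene was tested, and ZNF577, ZNF836, ZNF160 and ZNF765 were lost in some. The median log2 fold change of the members ranged from 0.26 to 0.36. Leaving out a library moved the estimates of ZNF615, ZNF766, ZNF880, ZNF320 and ZNF813, none of them called, by over 1.5 times. Estimates of ZNF813 and ZNF320, neither called, fell below 0 in 13 and 2 alternatives. Depth limits the 8 members below the filter, and intervals cover counting error only.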
